A study of Mus musculus with 9 samples.

Results

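The genes described are 10 genes of the NRF2 antioxidant programme, read in 9 RNA-seq libraries of cloned mouse bone marrow stromal progenitors. They were chosen by name as the gene of the transcription factor NRF2 (Nfe2l2) and 9 genes that it is known to control or that serve antioxidant defence (Hmox1, Nqo1, Gclc, Gclm, Txnrd1, Srxn1, Slc7a11, Gsta4 and Gstm1). All 10 were found by name, each with 1 identifier, among the 24186 genes of the count table, and all 10 were among the 15098 genes kept for testing.

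NRF2 is a basic leucine zipper protein that KEAP1 normally holds in the cytoplasm and hands to the proteasome. Electrophiles and oxidants modify KEAP1, NRF2 then accumulates, pairs with small MAF proteins and binds antioxidant response elements in its target genes, for which BACH1 competes. Its targets make and use glutathione, recycle thioredoxin, break down heme and reduce quinones, and in stromal cells of the marrow such genes help a cell to withstand oxidants. Because NRF2 is controlled mainly through protein stability, the mRNA of Nfe2l2 alone does not report its activity, and NRF2 protein was not measured here.

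Stromal cells had been taken from the femora and tibiae of adult C57Bl/6 mice with the irtTA-GBD*-TAg transgene, which makes the SV40 large T antigen under dexamethasone and doxycycline. The clones were isolated by limiting dilution or by sorting single cells, and all 9 cultures had been without both drugs for 3 days when RNA was taken. The 3 groups were untreated adipogenic progenitors, adipogenic progenitors given 10 ng/ml IFNγ for 3 days, and osteogenic progenitors without IFNγ, with 3 libraries in each, numbered 4, 5 and 6. The labels do not say whether those numbers stand for clones, cultures or animals, so a p-value here rests on the spread among these samples alone, which may be technical.

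Library totals ran from 27440089 to 39251602 counts, and levels are given as CPM, counts scaled to the size of the library. The limit that 0 counts allow, taken as 3 counts, was 0.0749 to 0.113 CPM per library. Of 11 stromal markers, 9 were above 1 CPM in every group. Of 7 osteoblast markers, 4, 2 and 7 were above 1 CPM in the untreated, treated and osteogenic group means. The osteogenic libraries carried the osteoblast factor gene Sp7 at 100.2 CPM, against 0.182 CPM in untreated and 0.134 CPM in treated adipogenic libraries. Alpl and Ibsp were likewise higher than in untreated libraries without overlap. Spp1 (956 ± 672 against 856 ± 585 CPM untreated), Bglap, Bglap2 and Dmp1 overlapped between these 2 groups. The label "adipogenic" stands for progenitors: the mature adipocyte gene Adipoq was at 0.095 CPM or less in all 3 group means, and Fabp4 was the 1 adipocyte marker above 1 CPM. The pan-leukocyte gene Ptprc was at 0.0333 CPM or less in every group mean. Mitochondrial transcripts took 0.66 to 0.706% of counts in the treated libraries and 0.93 to 1.38% in the untreated adipogenic ones, and the 10 most abundant genes took 10.7 to 13.3% of counts in the osteogenic libraries and 5.31 to 6.23% in the untreated adipogenic ones. The part of these shares in the results was not tested. In bulk RNA, fewer cells of a kind and less RNA per cell cannot be told apart.

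The DNA letters that NRF2 reads are shown first because Gclm, the 1 gene of the 10 that passed with IFNγ, holds the loose form of the antioxidant response element near its start site. The search used RefSeq promoter windows of GRCm38.p6, from 250 bases before to 50 bases after each start. Of the 10 genes, 7 had entries, with 10 windows in all, and Hmox1, Gclc and Gsta4 were not searched. The loose core TGACNNNGC on either strand was found in 4 of these 10 windows, 1 each of Nfe2l2, Gclm, Txnrd1 and Srxn1, and 12.4% of all 32851 windows of the same length hold it. The strict form TGACTCAGC, which contains the AP-1 site TGACTCA, was found in 0 of the 10 windows and in 0.454% of all windows. The AP-1 site itself was found at 2 places upstream of Srxn1 and in 5.2% of all windows. A match describes letters in a window and is neither a bound site nor a cause, and NRF2 elements can lie outside these windows. In the lines that follow, capitals mark the matched letters, written on the gene's own strand. The Gclm, Txnrd1 and Srxn1 matches read as the motif on the opposite strand. The first 3 lines are the loose core, and the last 2 are the AP-1 site. In the proximal Srxn1 line the match and the next 2 letters read TGAGTCAgc. This differs from the strict form TGACTCAGC in 1 letter and was not searched for, so the count of 0 does not cover it.
Nfe2l2: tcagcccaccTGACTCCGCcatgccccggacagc
Gclm: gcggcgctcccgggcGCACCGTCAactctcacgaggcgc
Txnrd1: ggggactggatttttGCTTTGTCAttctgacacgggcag
Srxn1 distal: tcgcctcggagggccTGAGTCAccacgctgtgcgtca
Srxn1 proximal: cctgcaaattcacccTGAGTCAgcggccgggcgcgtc
The Nfe2l2 stretch lies at chr2:75704880-75704913 on the minus strand, with the match 240 to 232 bases before the start. The others lie on the plus strand: Gclm at chr3:122245408-122245446 with the match 134 to 126 bases before its start, Txnrd1 at chr10:82859099-82859137 with the match 92 to 84 bases before one of its 3 starts, and Srxn1 at chr2:152105407-152105443 and chr2:152105464-152105500 with matches 102 to 96 and 45 to 39 bases before its start. These positions are of GRCm38.p6, whereas the counts were made on mm9.

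Across genes, levels were compared per kilobase of exonic length (RPKM, computed here). Hmox1 stood highest in untreated adipogenic progenitors at 186 ± 12.2 RPKM (SD, n = 3), followed by Txnrd1 at 77.8 ± 7.72. Gstm1, Gsta4, Nfe2l2, Gclc and Srxn1 had means between 41.3 and 18.4 RPKM in this order, each within the spread of its neighbour. The mean of Gclm was lower at 8.05 ± 0.604 RPKM, but within the spread of Gsta4 (31.2 ± 43.2, with libraries at 80.9, 3.09 and 9.54). Nqo1 (2.82 ± 1.64) and Slc7a11 (1.44 ± 1.74) closed the order and did not differ beyond their spread. With IFNγ, Hmox1 and Txnrd1 stood at 199 ± 67 and 113 ± 17.2 RPKM. In osteogenic progenitors they were 63.5 ± 6.58 and 58.2 ± 6.07 RPKM, no longer apart beyond their spread.

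**Figure D1:**
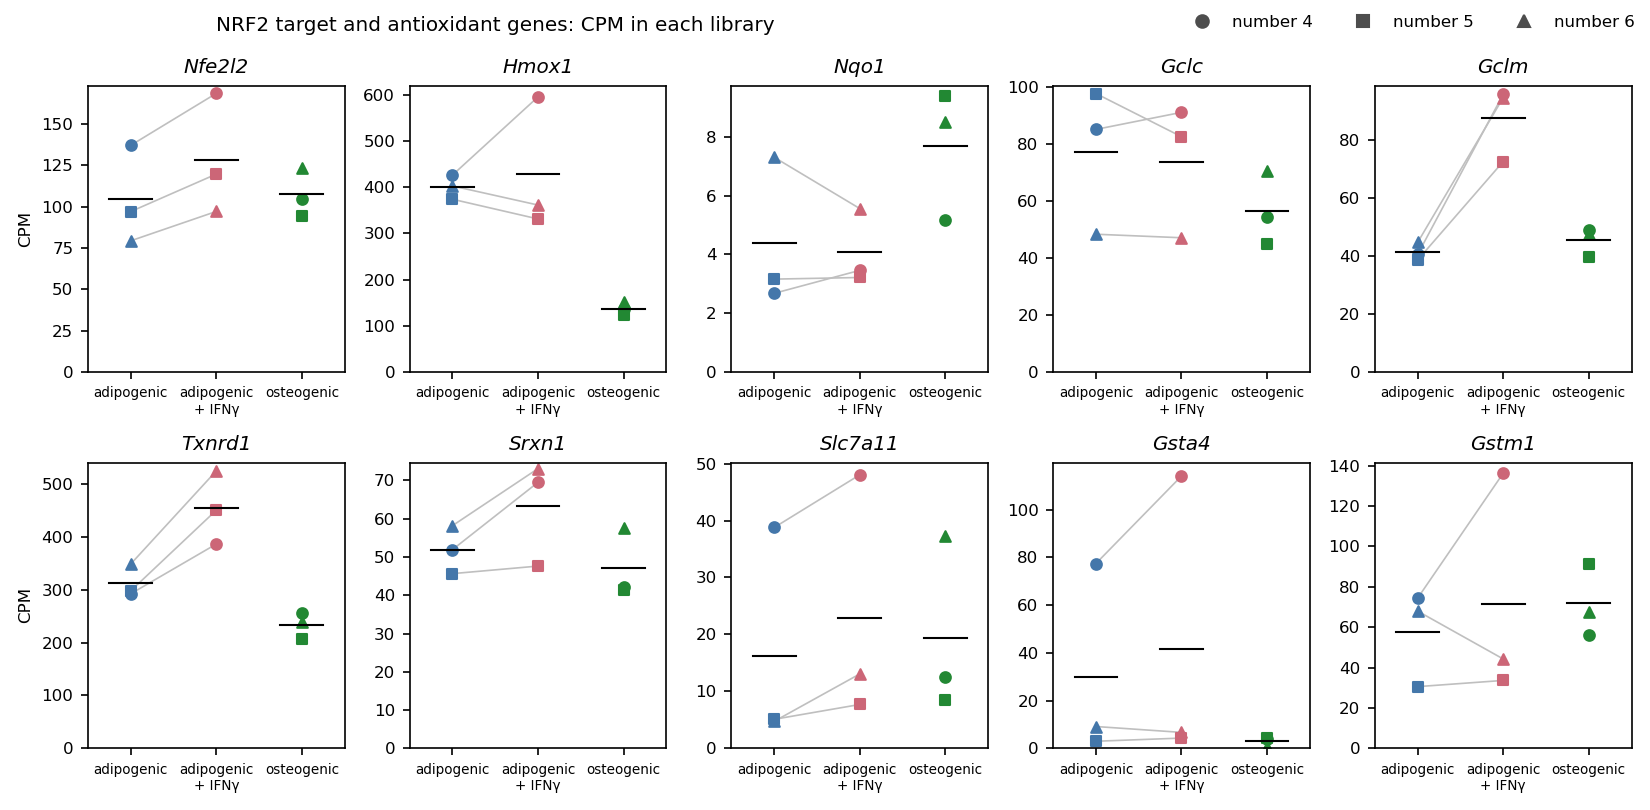
TMM-scaled CPM (y axis, linear from 0) of each of the 10 genes in the 3 groups (x axis), with 1 point per library carrying its number and a bar at the group mean. The 3 treated libraries lie above all untreated ones for Gclm and Txnrd1, the 3 osteogenic libraries lie below all others for Hmox1, and the adipogenic libraries numbered 4 stand far above numbers 5 and 6 for Slc7a11 and Gsta4.

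The comparisons were 3: IFNγ-treated against untreated adipogenic progenitors, which asks what the cytokine does to these cells, osteogenic against untreated adipogenic progenitors, which asks how the lineages differ, and treated adipogenic against osteogenic progenitors. They share libraries in pairs and so are not independent of each other. After IFNγ, 1 of the 10 genes passed the test (adjusted p under 0.05, edgeR quasi-likelihood test over all genes) and 9 did not, while 2.26% of all genes tested passed. Between osteogenic and untreated adipogenic progenitors 1 of the 10 passed, against 5.17% of all genes. Between treated adipogenic and osteogenic progenitors 3 of the 10 passed, all higher with IFNγ, against 16.7% of all genes (9.2% higher). The median log2 fold change of the 10 genes was 0.30, -0.05 and 0.41 in the 3 comparisons in this order, beside -0.02, -0.02 and 0.03 over all genes. Groups that did not overlap were common: 2, 2 and 3 of the 10 genes had none of their libraries in the range of the other group, against 17.4%, 31% and 38.5% of all genes.

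**Figure D2:**
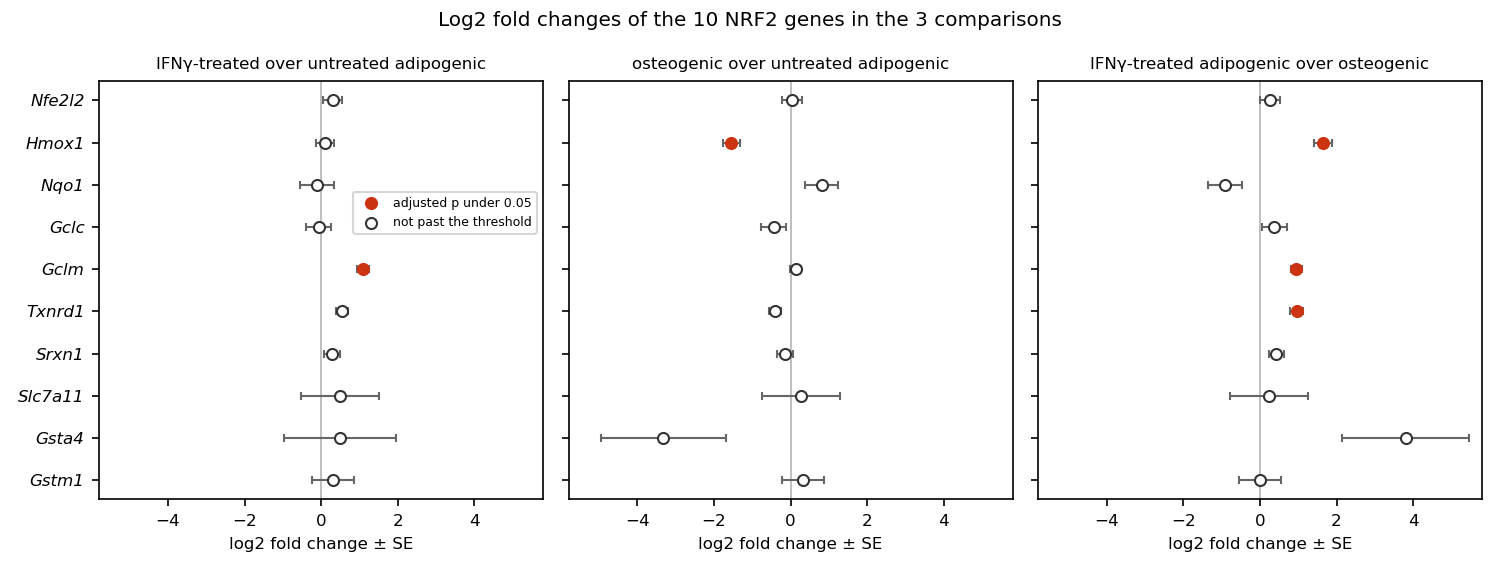
Log2 fold change with its SE (x axis) of each of the 10 genes (y axis) in the 3 comparisons, 1 panel each; filled red points passed at an adjusted p under 0.05 and open points did not. Gclm passed in 2 panels, Hmox1 in 2 and Txnrd1 in 1, and the bars of Slc7a11 and Gsta4 are the widest.

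Same-numbered adipogenic libraries deviated together from their group means (correlation 0.769 to 0.779, against -0.461 to -0.279 for different numbers), so IFNγ was also read within each number. A fit of these 6 libraries with the number as a replicate block called 2 of the 10 genes, Gclm and Txnrd1, both higher, where 16.6% of all genes passed in either direction, 8.61% higher and 8.02% lower. Of the 10 genes, 5 were higher with IFNγ in all 3 same-numbered pairs (Nfe2l2, Gclm, Txnrd1, Srxn1 and Slc7a11) and 0 were lower in all 3. Over all genes tested, 26.9% were higher and 29.7% were lower in all 3 pairs.

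**Figure D3:**
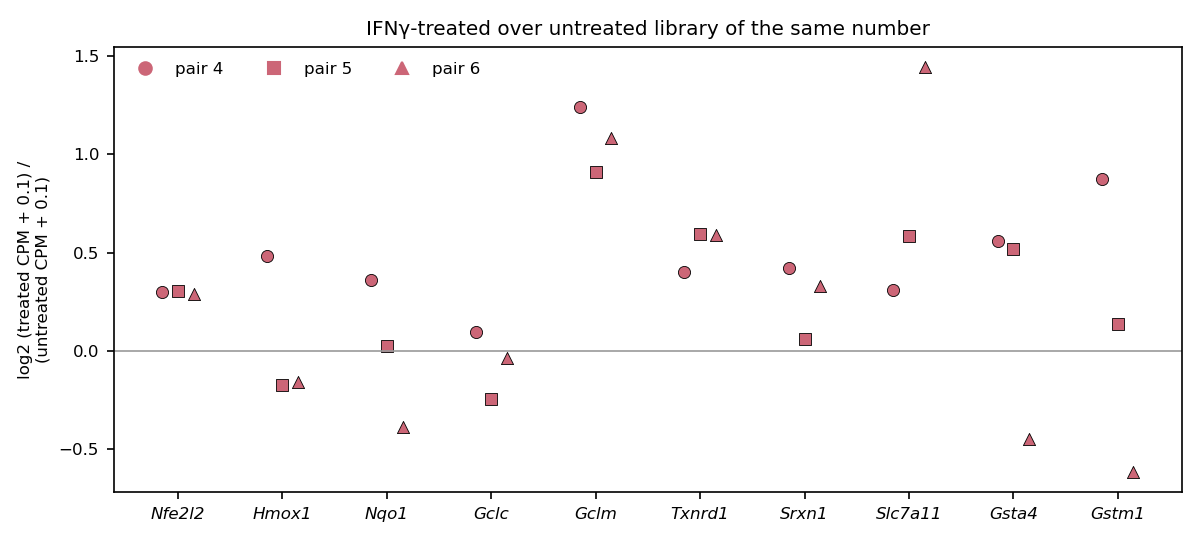
Log2 ratio of treated over untreated CPM (y axis, 0.1 CPM added to both) for each of the 10 genes (x axis), with 1 point per library number. All 3 points are above 0 for Nfe2l2, Gclm, Txnrd1, Srxn1 and Slc7a11, and those of Nfe2l2 nearly coincide.

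Nfe2l2 (ENSMUSG00000015839), the gene of NRF2 itself, was at 137.1, 97.0 and 79.3 CPM in untreated libraries 4, 5 and 6. It was at 169, 120 and 97.1 CPM in the treated libraries of the same numbers and at 105, 94.5 and 123 CPM in the osteogenic ones. The untreated and treated values overlapped, with number 4 highest in both groups, and the osteogenic values fell within the untreated range. Within a number, the treated library was 1.23, 1.23 and 1.22 times the untreated one. The fold change was 0.30 ± 0.26 (log2 ± SE) with an edgeR adjusted p of 0.687, and 0.28 ± 0.08 with an adjusted p of 0.0653 in the fit with the replicate block. Against osteogenic progenitors neither adipogenic group passed (edgeR adjusted p 0.941 untreated and 0.544 treated).

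Keap1, whose protein marks NRF2 for destruction, was at 71.8, 61.9 and 71.2 CPM without IFNγ. It was at 112, 86.1 and 100.1 CPM with IFNγ and at 57.3, 59.6 and 67.6 CPM in osteogenic progenitors. All 3 treated libraries were above all others. The treated level was 0.69 ± 0.13 log2 above the osteogenic one (edgeR adjusted p = 0.0118). Against untreated adipogenic progenitors the difference was 0.54 ± 0.13 with an adjusted p of 0.0979, which was 0.0153 with the replicate block and 0.00482 with DESeq2. Of 14 regulators of NRF2 tested, Keap1 included, 3 were higher in treated adipogenic than in osteogenic progenitors (Keap1 and the small MAF genes Mafk and Maff). Over all genes, 9.2% were higher in that comparison. The calls of Mafk and Maff were lost without treated library 6 and without any single osteogenic library, and that of Maff also without treated library 5 (edgeR adjusted p 0.0504 to 0.0908). In edgeR 0 passed with IFNγ and 0 between osteogenic and untreated adipogenic progenitors, against 2.26% and 5.17% of all genes. With IFNγ, 1 of the 14 had all treated libraries above all untreated ones and 0 had them all below, against 10.2% and 7.17% of all genes. For 0 of the 14 all osteogenic libraries lay above the untreated ones and for 4 below, against 15% and 15.9% of all genes. Bach1, the repressor that competes for the same elements, did not pass in any comparison, with means of 65.7 ± 15.5, 60.4 ± 16.9 and 65.4 ± 4.15 CPM in the untreated, treated and osteogenic groups. Sqstm1, whose protein p62 binds KEAP1, did not pass in edgeR either, with means of 1146 ± 422, 1032 ± 360 and 574 ± 126 CPM, while DESeq2 called it lower in osteogenic than in untreated adipogenic progenitors (adjusted p = 0.0358, against 0.140 in edgeR).

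Gclm (ENSMUSG00000028124) encodes the modifier subunit of glutamate-cysteine ligase, which makes the catalytic subunit more efficient in the rate-limiting step of glutathione synthesis. It was at 40.6, 38.7 and 44.7 CPM without IFNγ and at 95.9, 72.7 and 94.8 CPM with it, so the groups did not overlap. The osteogenic libraries were at 48.9, 39.8 and 47.6 CPM, within or just above the untreated range. Gclm rose 2.12-fold with IFNγ, 1.09 ± 0.15 on the log2 scale (edgeR adjusted p = 0.00758), and by 2.36, 1.88 and 2.12 times within numbers 4, 5 and 6. Treated adipogenic progenitors were also above osteogenic ones, by 0.95 ± 0.15 (edgeR adjusted p = 0.00472), whereas osteogenic and untreated adipogenic progenitors differed by 0.14 ± 0.15 (adjusted p = 0.622). Both calls held in every alternative, including each fit that left out 1 library. Of the 75-base stretches of Gclm transcripts, 3.5% also occur in other genes, and how many of its reads these could share was not measured. The upstream 250 bases of Gclm, for the gene with the clearest rise, read as follows at chr3:122245307-122245556 (GRCm38.p6, plus strand), with the loose core in capitals.
Gclm upstream: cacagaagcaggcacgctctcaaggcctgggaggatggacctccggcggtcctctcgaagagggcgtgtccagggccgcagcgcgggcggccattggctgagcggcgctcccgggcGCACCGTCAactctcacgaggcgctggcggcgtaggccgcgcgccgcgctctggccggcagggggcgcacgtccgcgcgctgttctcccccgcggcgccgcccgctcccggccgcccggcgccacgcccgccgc

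Gclc (ENSMUSG00000032350), the catalytic subunit of the same enzyme, did not pass in any comparison. It was at 85.2, 97.8 and 48.3 CPM without IFNγ, at 91.2, 82.6 and 47.1 CPM with it, and at 54.4, 44.8 and 70.7 CPM in osteogenic progenitors. The adipogenic values overlapped almost wholly, with number 6 lowest in both groups. Its fold change with IFNγ was -0.07 ± 0.33 (edgeR adjusted p = 0.962), and the pair ratios were 1.07, 0.845 and 0.975. The mean of Gclm with IFNγ was 87.8 ± 13.1 CPM beside 41.3 ± 3.10 without, whereas the means of Gclc were 73.6 ± 23.4 and 77.1 ± 25.7 CPM. Whether the 2 subunits differ in their response was not tested.

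Slc7a11 (ENSMUSG00000027737) encodes the cystine carrier xCT, which supplies the cysteine for glutathione. In the untreated libraries it was at 38.8, 5.09 and 4.74 CPM, in the treated ones at 48.0, 7.70 and 13.1 CPM, and in the osteogenic ones at 12.5, 8.46 and 37.3 CPM. Library 4 was thus far above numbers 5 and 6 in both adipogenic groups, and library 6 was the highest of the osteogenic ones. The highest untreated library exceeded the lowest 8.18-fold, and the coefficient of variation was 121%, beside a median of 21.5% over all genes in that group. No comparison passed (edgeR adjusted p 0.896, 0.905 and 0.901), and the SE of each fold change was 1.02 on the log2 scale. Within numbers the treated library was 1.24, 1.5 and 2.72 times the untreated one (adjusted p = 0.1 with the replicate block). Its partner in the carrier, Slc3a2, followed the same libraries, at 944, 266 and 255 CPM without IFNγ, 856, 253 and 292 with it, and 314, 338 and 487 in osteogenic progenitors. In the untreated libraries, so did the stress-response genes Trib3 (243, 28 and 17.6 CPM) and Chac1 (113, 31.6 and 27.8 CPM). ATF4 is known to control both together with Slc7a11. Slc3a2, Trib3 and Chac1 were named after their values were seen. The rest of the 13 tested genes of the ATF4 response are not given here, and the part of ATF4 was not tested.

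Txnrd1 (ENSMUSG00000020250) encodes the cytosolic thioredoxin reductase, a selenoprotein that keeps thioredoxin reduced with NADPH. It was at 292, 298 and 348 CPM without IFNγ and at 386, 450 and 525 CPM with it. The osteogenic libraries were at 255, 207 and 239 CPM. The 3 groups did not overlap at all, with the treated one highest and the osteogenic one lowest. Treated adipogenic progenitors were above osteogenic ones by 0.96 ± 0.16 on the log2 scale, 1.94-fold (edgeR adjusted p = 0.00598). The difference with IFNγ was 0.54 ± 0.16, with pair ratios of 1.32, 1.51 and 1.51, and did not pass (edgeR adjusted p = 0.152). The replicate block gave 0.52 ± 0.10 with an adjusted p of 0.0294, and DESeq2 gave 0.029, so both called it. The osteogenic level was -0.42 ± 0.16 relative to untreated adipogenic progenitors (edgeR adjusted p = 0.158). All treated libraries lay above all untreated ones for 10.2% of all genes and for 2 of the 10, Gclm and Txnrd1.

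Srxn1 (ENSMUSG00000032802) encodes sulfiredoxin, which restores over-oxidised peroxiredoxins. It was at 51.9, 45.7 and 58.2 CPM without IFNγ, at 69.5, 47.6 and 73.1 CPM with it, and at 42.2, 41.3 and 57.6 CPM in osteogenic progenitors. The groups overlapped, although each treated library was above the untreated one of its number, by 1.34, 1.04 and 1.26 times. Its fold change with IFNγ was 0.29 ± 0.21 (edgeR adjusted p = 0.613, and 0.136 with the replicate block), and treated against osteogenic progenitors it was 0.43 ± 0.21 (adjusted p = 0.190).

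Hmox1 (ENSMUSG00000005413) encodes heme oxygenase-1, which opens heme into biliverdin, iron and carbon monoxide. It was high in both adipogenic groups and lower in the osteogenic one. Untreated adipogenic libraries were at 427, 374 and 403 CPM, treated ones at 596, 331 and 362 CPM, and osteogenic ones at 136, 124 and 152 CPM. All 6 adipogenic libraries were thus above all 3 osteogenic ones, while treated and untreated libraries overlapped and the treated library 4 stood apart. Hmox1 was 2.93-fold lower in osteogenic than in untreated adipogenic progenitors, -1.55 ± 0.23 on the log2 scale (edgeR adjusted p = 0.0122). Without osteogenic library 4 the adjusted p of this difference was 0.0568. In treated adipogenic progenitors it was 3.13-fold above the osteogenic level, 1.65 ± 0.23 (edgeR adjusted p = 0.00287). With IFNγ it did not pass (0.10 ± 0.22, adjusted p = 0.908), and the pair ratios were 1.40, 0.886 and 0.897. Macrophages are a rich source of Hmox1 in marrow, and 7 of 10 macrophage markers matched: their summed level was 12.9 to 30.6 CPM in untreated, 12.8 to 20.3 in treated and 10.1 to 13.9 CPM in osteogenic libraries, with Ptprc near 0 as given above and Csf1r at means of 0.374, 0.161 and 0.449 CPM. The most abundant of them, Cd68 and Cd14, were lower in the osteogenic group, like Hmox1, with means of 10.3, 8.39 and 3.99 CPM for Cd68 and 10.2, 7.96 and 4.80 CPM for Cd14. Csf1r, Lyz2 (means of 1.86, 0.782 and 1.87 CPM) and Fcer1g (0.295, 0.353 and 0.997 CPM) were not lower there. Itgam and Ptprc were near or below the limit that 0 counts allow. The part of macrophages in the Hmox1 difference was not tested.

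Nqo1 (ENSMUSG00000003849), the quinone reductase that is often read as a gauge of NRF2 activity, was among the lowest of the 10. It was at 2.68, 3.16 and 7.31 CPM without IFNγ, at 3.46, 3.21 and 5.56 CPM with it, and at 5.17, 9.4 and 8.5 CPM in osteogenic progenitors. The ranges overlapped in every comparison, and number 6 was highest in both adipogenic groups. The fold change was -0.10 ± 0.44 with IFNγ (edgeR adjusted p = 0.955), 0.81 ± 0.44 for osteogenic against untreated adipogenic progenitors (0.309) and -0.91 ± 0.44 for treated against osteogenic ones (0.196). Its direction with IFNγ turned when single libraries were left out, with values from -0.39 to 0.48.

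Gsta4 (ENSMUSG00000032348) encodes the glutathione S-transferase that removes 4-hydroxynonenal, a product of lipid oxidation. It was at 77.4, 2.96 and 9.13 CPM in untreated libraries, at 114, 4.29 and 6.67 CPM in treated ones, and at 4.05, 4.29 and 0.649 CPM in osteogenic ones. Library 4 stood far above numbers 5 and 6 in both adipogenic groups, and the highest and lowest libraries of a group differed 26.2-fold without and 26.6-fold with IFNγ. No comparison passed: the fold changes were 0.48 ± 1.47 (edgeR adjusted p = 0.936), -3.32 ± 1.62 (0.261) and 3.8 ± 1.66 (0.155), and DESeq2 gave an adjusted p of 0.0466 for the last. With the replicate block the change with IFNγ was 0.20 ± 0.22 (adjusted p = 0.576), and same-numbered libraries were high or low together. The mean of 29.8 ± 41.3 CPM in untreated progenitors thus describes no library of the 3.

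Gstm1 (ENSMUSG00000058135), a mu-class glutathione S-transferase, was at 74.4, 30.5 and 67.9 CPM without IFNγ. It was at 136, 33.6 and 44.2 CPM with IFNγ and at 56.1, 91.5 and 67.5 CPM in osteogenic progenitors. The groups overlapped, number 5 was lowest in both adipogenic groups, and no comparison passed (edgeR adjusted p 0.873, 0.775 and 0.994). Pair ratios of 1.83, 1.10 and 0.652 went in both directions. Of its 75-base stretches, 11.7% also occur in other genes, Gstm3 and a Gstm2 pseudogene among them, so its counts are uncertain, by an amount that was not measured.

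Over the 9 libraries, the log2 CPM of 45 pairs among the 10 genes had a median Pearson correlation of 0.299, and 4 pairs exceeded 0.7. The closest pair was Nfe2l2 with Slc7a11 (0.855), followed by Gclm with Txnrd1 (0.797), Hmox1 with Txnrd1 (0.713) and Gclm with Srxn1 (0.71). The most opposed pair was Nqo1 with Gclc (-0.791). Among 15088 other genes, Tmem194 (0.983) and Batf3 (0.981) were among those nearest to Gclm. Those nearest to Hmox1 were Arhgap26 (0.997), Atp6v1c1 (0.987) and Fnip1 (0.987), and those nearest to Nfe2l2 were Hnrnpf (0.981), Epc2 (0.965) and Zfp106 (0.963). These are descriptions over 9 points that share their group and, among the adipogenic libraries, their number.

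The wider pathway was read in 10 further lists of genes for NRF2 regulation, glutathione, its transferases, thioredoxin, superoxide and catalase, NADPH supply, heme and iron, other NRF2 targets, the ATF4 response and oxidant sources, 132 genes tested in all. After IFNγ, 1 of these 132 was higher and 0 were lower in edgeR, 0.758% beside 2.26% of all genes. The median log2 fold change of the 132 with IFNγ was -0.00376, beside -0.0228 over all genes. Osteogenic against untreated adipogenic progenitors, 3 were higher and 5 lower, 6.06% beside 5.17%. Treated adipogenic against osteogenic progenitors, 18 were higher and 6 lower, 18.2% beside 16.7% of all genes. With the replicate block, 13 of 131 were higher and 14 lower with IFNγ, 20.6% beside 16.6%. Of the 16 tested genes of glutathione synthesis, recycling and peroxidases, 0 passed with IFNγ without the block. With the block, 2 were higher and 5 lower, where 8.61% of all genes were higher and 8.02% lower. The 2 higher were glutathione reductase Gsr (0.45 ± 0.10, adjusted p = 0.0376 with the block) and Ggct (1.72 ± 0.19, 0.00800). Among the 5 lower were glutathione synthetase Gss (-0.90 ± 0.19, 0.0352) and the peroxidase Gpx1 (-0.62 ± 0.09, 0.0143). This list and these genes were singled out after their values were seen. With the block, 3 of the other NRF2 targets were higher and 4 lower with IFNγ. Of the glutathione S-transferases and of the NADPH supply genes, 0 were higher and 0 lower.

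**Figure D4:**
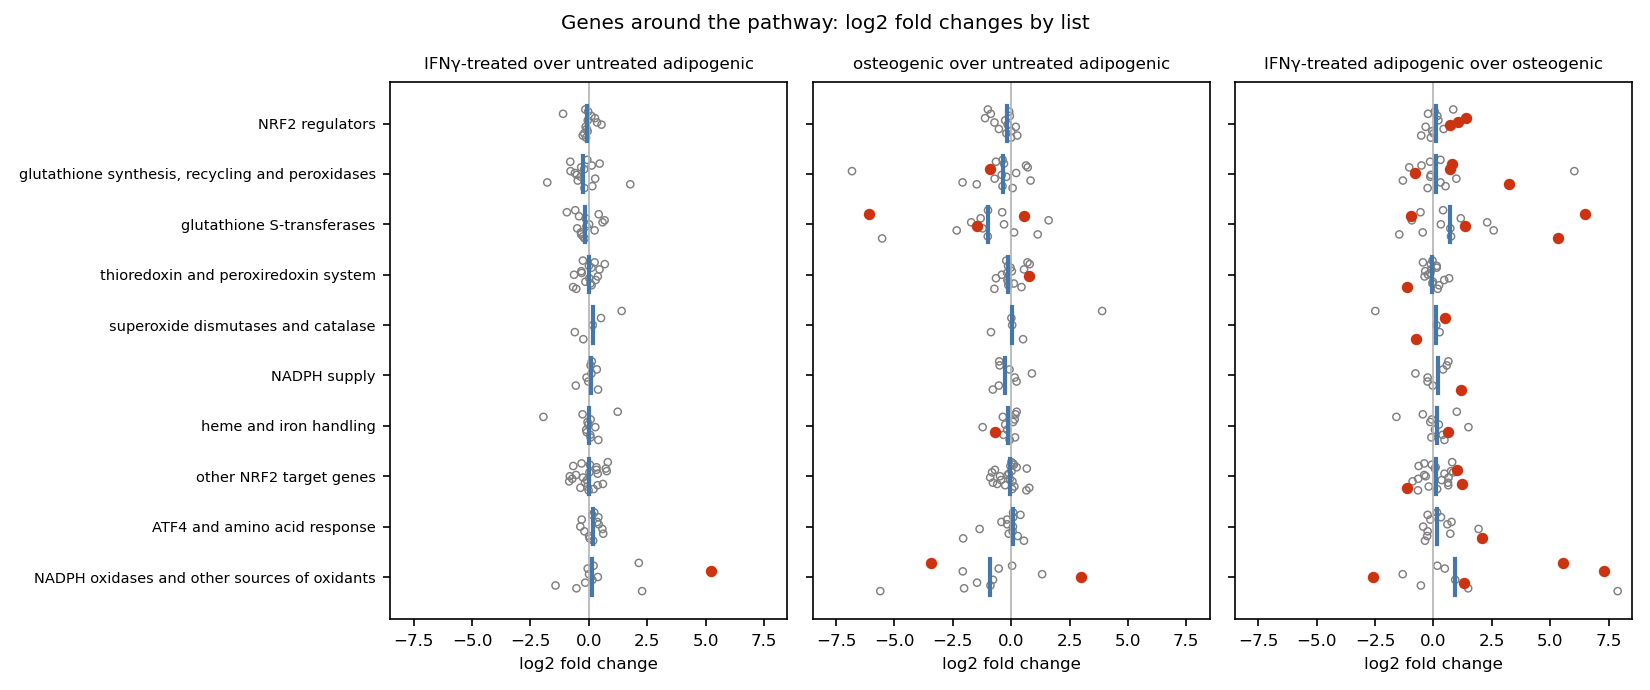
Log2 fold change (x axis) of every tested gene of the 10 lists (rows) in the 3 comparisons, 1 panel each. Filled red points passed at an adjusted p under 0.05 and open points did not. A blue bar marks the list median. Of the 132 list genes, 1, 8 and 24 passed in the 3 panels.

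Single list genes that kept their call in every fit that left out 1 library were 0 of 1, 1 of 8 and 8 of 24 in the 3 comparisons, and they are given here, beside Keap1 above. Gsto1, the omega-class transferase, was at 171, 193 and 144 CPM without IFNγ, at 181, 163 and 130 CPM with it, and at 61.1, 65.5 and 60.2 CPM in osteogenic progenitors. Like Hmox1 it was lower in osteogenic than in untreated adipogenic progenitors (-1.45 ± 0.16, edgeR adjusted p = 0.00439) and higher in treated adipogenic than in osteogenic ones (1.34 ± 0.16, adjusted p = 0.00142). Gstz1, the zeta-class transferase of tyrosine breakdown, was lower in treated adipogenic than in osteogenic progenitors (18.8 ± 2.06 against 36.6 ± 0.934 CPM, -0.96 ± 0.12, edgeR adjusted p = 0.00180). Mgst1, a membrane-bound transferase, stood at 36.8 ± 28.6 CPM in treated adipogenic and 0.406 ± 0.108 CPM in osteogenic progenitors (edgeR adjusted p = 0.0107, and 0.0590 with limma-voom). Akr1b3, an aldose reductase, was higher in treated adipogenic than in osteogenic progenitors by 1.20 ± 0.17 (edgeR adjusted p = 0.00283), as was Ggct, which splits gamma-glutamyl peptides, by 3.25 ± 0.56 (0.00741).

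Among genes whose enzymes make oxidants, Xdh, xanthine dehydrogenase, was at 190, 74.3 and 218 CPM without IFNγ, at 801, 594 and 730 CPM with it, and at 25.2, 14.4 and 5.34 CPM in osteogenic progenitors. The 3 groups did not overlap, and treated adipogenic progenitors were above osteogenic ones by 5.57 ± 0.66 on the log2 scale (edgeR adjusted p = 0.00149). Its difference with IFNγ was 2.14 ± 0.57 with an adjusted p of 0.118, and 2.25 ± 0.27 with an adjusted p of 0.00999 with the replicate block. Nos2, the inducible nitric oxide synthase and a textbook target of IFNγ, had 86, 115 and 32 counts in treated libraries beside 5, 1 and 0 in untreated and 0, 0 and 1 in osteogenic ones. It was the 1 list gene that passed with IFNγ (edgeR adjusted p = 0.0414), and its adjusted p lay between 0.0614 and 0.154 in 8 of the 9 fits that left out 1 library, all but the one without untreated library 4. With the replicate block its adjusted p was 0.00762. Treated adipogenic against osteogenic progenitors its adjusted p was 0.00665.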

How the data were processed

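The authors deposited whole-number read counts per Ensembl gene, not normalized, with 1 column per library and the exonic length per gene. Poly(A) RNA was used for directional libraries, read as 75-base single reads and pooled over all lanes, per the labels' protocols. CASAVA 1.8.0, bedtools 2.11 and the build mm9 are named in the submitters' processing notes. For the aligner, the counting settings and the use of strand, the sources used here give nothing.

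The 10 genes, the lists, the naming rule and the tests were chosen with earlier results of these data known. In R 4.3.3, edgeR 4.0.16 kept 15098 genes with filterByExpr by group, scaled libraries with TMM and fitted a robust quasi-likelihood model of group to all 9 libraries. Two-sided F tests were adjusted by Benjamini-Hochberg over all genes at 0.05. The SE is the fold change over the square root of F, CPM use TMM-scaled totals, and the biological coefficient of variation was 0.378. No 2 libraries of 1 group agreed within sampling noise. On simulated counts with 200 genes changed by 2 on the log2 scale among 14879, made for IFNγ against untreated, 79.5% were recovered. The changed genes were all well counted, and no likeness of same-numbered libraries was simulated. Smaller changes, such as those of the 10 genes with IFNγ, were not simulated, so this share does not apply to them.

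The numbers 4, 5 and 6 have no stated meaning. They paired the adipogenic groups (same-number correlation 0.769 to 0.779) and not the osteogenic ones (-0.0546 to 0.0552), so beside the results the replicate block is given for IFNγ only, and for the other comparisons among the alternatives. The naming rule took all 10 genes, Keap1, Bach1 and Sqstm1, the 3 nearest genes of each, and up to 4 passing genes per list and comparison with a mean of at least 1 CPM. Of those list genes, mainly the ones that kept their call in every fit without 1 library are named. Results for some genes that the rule takes are left out here. Alternatives were other scalings, DESeq2 1.42.0, voom in limma 3.58.1, no low-count filter, only the 6 libraries compared, replicate blocks and leaving out each library. Of 147 list entries, 2 had no match in the table, and Msrb1 and Akr1a1 were matched by identifier. Floors cover counting error alone: without molecular identifiers, reads are no independent molecules.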

Additional observations from a re-analysis of the deposited data

How the results depend on the processing

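Of the 30 fold changes of the 10 genes, 20 kept their direction in all 17 alternatives, and the 5 that passed kept theirs. The calls of Gclm in 2 comparisons and of Hmox1 in treated adipogenic against osteogenic progenitors held throughout. The number of the 10 genes that passed with IFNγ was 2 with DESeq2 and 2 with the replicate block in the 6 libraries compared, against 1. For osteogenic against untreated adipogenic progenitors it was 0 with that block and 0 to 1 with 1 library left out, the 0 being without osteogenic library 4. Txnrd1 in treated adipogenic against osteogenic progenitors had an adjusted p of 0.055 with that block.

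Counts over all genes moved more. With IFNγ, 341 became 1068 with DESeq2, 178 in only the 6 libraries compared, 2446 with the block in those 6, and 194 to 278 with 1 library left out. For osteogenic against untreated adipogenic progenitors, 780 became 2226 with DESeq2, 1244 with the block in all 9 libraries, 23 with the block in 6, and 159 to 771 with 1 left out. For treated adipogenic against osteogenic progenitors, 2525 became 3830 with DESeq2, 1257 with the block in 6, and 1312 to 2474 with 1 left out. The cause was not tested. The strict motif, searched as TGACTCAGC only, was found in 0 of the 7 genes with a promoter entry, the loose one in 4.

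Directions that turned were of genes that did not pass. With the replicate block in all 9 libraries, Slc7a11 in treated adipogenic against osteogenic progenitors was -0.26. Bach1 in osteogenic against untreated adipogenic progenitors, -0.01, was 0.0179 with upper-quartile scaling, 0.0215 with voom, 0.0307 with the block in 9 libraries and 0.0146 with the block in 6. With 1 library left out, fold changes with IFNγ ran from -0.20 to 0.24 for Hmox1, -0.39 to 0.48 for Nqo1, -0.31 to 0.18 for Gclc, -0.63 to 2.21 for Slc7a11, -2.44 to 2.76 for Gsta4, -0.56 to 0.63 for Gstm1, -0.33 to 0.0909 for Bach1 and -0.38 to 0.16 for Sqstm1. Osteogenic against untreated they ran from -0.12 to 0.29 for Nfe2l2, -0.62 to 1.98 for Slc7a11 and -0.18 to 0.16 for Bach1. Treated against osteogenic they ran from -0.89 to 1.12 for Slc7a11, -0.87 to 0.31 for Gstm1 and -0.33 to 0.10 for Bach1.

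With 3 libraries a group, an exact permutation test cannot give a p below 0.1, and without the block the SE of Gsta4 was 1.47 on the log2 scale with IFNγ. The lowest count among the 10 genes was 23, of Gsta4 in osteogenic library 6. The effect of depth on the calls was not tested.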
